A study of Homo sapiens with 6 samples.

Results

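Genes of the lysosome, of endosome sorting and of autophagy were examined in SW480 cells, a human cell line from a colorectal adenocarcinoma. The members were taken from the deposited mRNA table by their symbols: those starting with ATP6V, ATP6AP, LAMP plus a digit, ATG plus a digit, GABARAP, MAP1LC3, VPS, SNX or CHMP, those starting with CTS plus a further letter, and ASAH1. The rule used no measured value, though it was chosen with earlier results of these data known. It found 82 members among the 8529 genes of the table. Both groups held the same line, labelled as wild type (WT) and grown in Leibovitz's L-15 medium with serum for 72 h on hydrogel-coated plates. One group grew on a hydrogel of 2 kPa and the other on one of 25 kPa, with 3 libraries each, and the comparison asks what changes in the cells when the matrix is stiffer. The 3 libraries of a group are triplicate cultures of 1 cell line, so the errors cover the spread between such cultures and not that between tumours.

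Lysosomes are the acid compartment in which cells break down proteins, lipids and sugars. The proton pump V-ATPase acidifies them, cathepsins and other hydrolases do the digestion, and LAMP proteins line their membrane. Cargo reaches them from endosomes, where retromer and sorting nexins return receptors and the ESCRT complexes bud cargo into internal vesicles, or by autophagy, in which ATG proteins build a double membrane that carries lipid-bound proteins of the ATG8 family (GABARAP and LC3). TFEB and its relatives are transcription factors that bind an E-box variant in the promoters of many of these genes.

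Values are FPKM, fragment counts scaled to gene length and to the depth of the library, as the authors deposited them. The FPKM of a library summed to between 201030 and 263028, with medians of 2.23 to 2.83, and the number of reads behind a value is not known. Libraries of the same stiffness had a Pearson's r of 0.974 to 0.988 across genes, which are not independent of each other. The 2 kPa replicate 2 library was the highest of its group for 49.0% of all genes and for 48.8% of the members. The 25 kPa replicate 3 library was the highest of its group for 51.2% of the members and 35.6% of all genes. As a check of the cell type, 10 of 13 markers of colon epithelium were in the table, and KRT8, CDH17 and LGR5 were not. KRT18 was at 2611 to 3358 FPKM, KRT19 at 909 to 1623 FPKM and EPCAM at 64.7 to 101 FPKM, while CDX1 and CDX2 were at 0.04 to 0.79 FPKM. Of 9 markers of blood, fibroblast, endothelial or liver cells, PDGFRB and ALB were in the table, at no more than 0.53 FPKM. GAPDH, a gene of every cell, was listed at 0.32 to 3.35 FPKM and ACTB at 684 to 1469 FPKM. A low value in this table therefore cannot be read as a gene that the cells lack. The filters behind the table are not given, so the absence of a symbol, a marker or a family member, cannot be read that way either.

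The 82 members were expressed over a wide range, and the direction in which most of them differed between the matrices depended on the scaling. Their mean level over the 6 libraries ran from 0.265 FPKM for ATG12 to 144 FPKM for CTSZ, with a median of 7.11 FPKM against 2.61 FPKM over all genes, and 20 of them lay under 1 FPKM. All log2 differences given here are 25 kPa minus 2 kPa on log2(FPKM + 1), a scale that understates the fold of weakly expressed genes. By this measure 45 members were higher and 37 lower, and their median was 0.01 against 0.05 over all genes. The higher ones were 54.9% of the members, against 59.6% of all genes. With FPKM rescaled to equal library sums 30 were higher and 52 lower, after quantile normalisation 36 and 46, and after median centring 37 and 45. Their median was then −0.07, −0.02 and −0.04, against −0.02, 0.00 and 0.00 over all genes. Of all 8529 genes, 5081 were higher as reported, and 3888, 4327 and 4190 in these settings. Counts of higher genes given below for compartments and lists stand beside these.

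By limma, none reached an adjusted p under 0.05 (0 of 82, with 0.117% of all genes called). At an unadjusted p under 0.05, 6 members were higher at 25 kPa (6.96% of all genes called) and 4 were lower (3.19% of all genes called). These 10 members are 12.2% of the set, against 10.2% of all genes, so as reported the share is near that of the table as a whole. All libraries of one matrix lay beyond all those of the other for 7 members that were higher (11.2% of all genes) and for 5 that were lower (4.78% of all genes). The split by direction depended on the scaling between libraries: with FPKM rescaled to equal library sums, 1 member was higher and 11 were lower at an unadjusted p under 0.05, after quantile normalisation 3 and 9, and after median centring 1 and 4. The members that were lower made up 13.4% of the set against 4.67% of all genes with equal library sums, 11% against 5.29% after quantile normalisation and 4.88% against 4.58% after median centring. Of all genes, 3.48%, 5.52% and 4.57% were higher at an unadjusted p under 0.05 in these settings, as were 1, 3 and 1 of the 82 members. For 55 (88.7%) of the 62 members with a mean of at least 1 FPKM, the 95% interval lay inside a 2-fold change. This change is in FPKM + 1, in either direction, and near 1 FPKM it allows a larger fold of FPKM itself. Among all genes at that level the share was 85.2%. The other 7 of these 62 members were GABARAPL1, LAMP1, ATG2B, CHMP3, VPS28, SNX7 and SNX14.

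**Figure D1:**
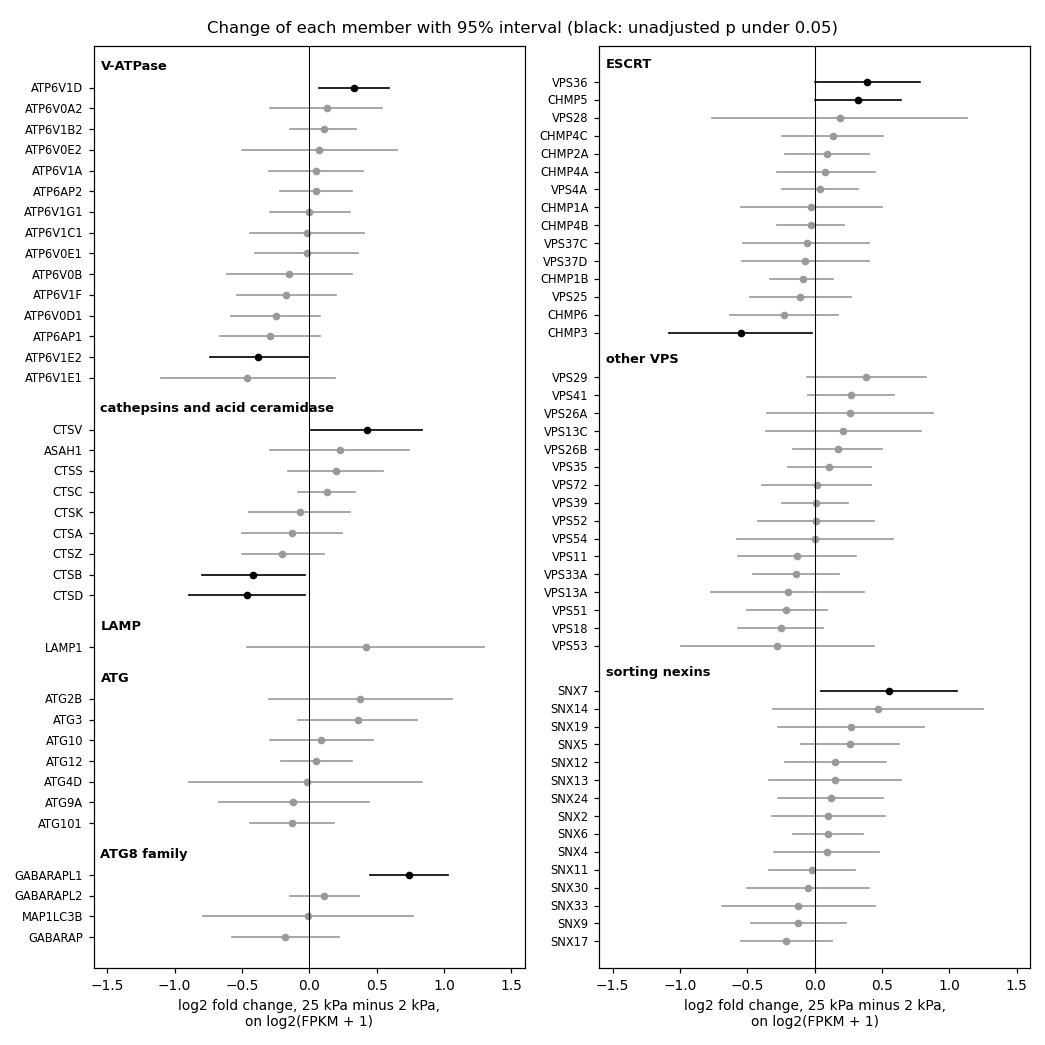
Log2 difference of each of the 82 members (25 kPa minus 2 kPa, on log2(FPKM + 1), x axis), grouped by compartment, where points are limma estimates and lines their 95% intervals. Black marks the 10 members with an unadjusted p under 0.05, and GABARAPL1 at 0.74 lies farthest from 0.

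**Figure D2:**
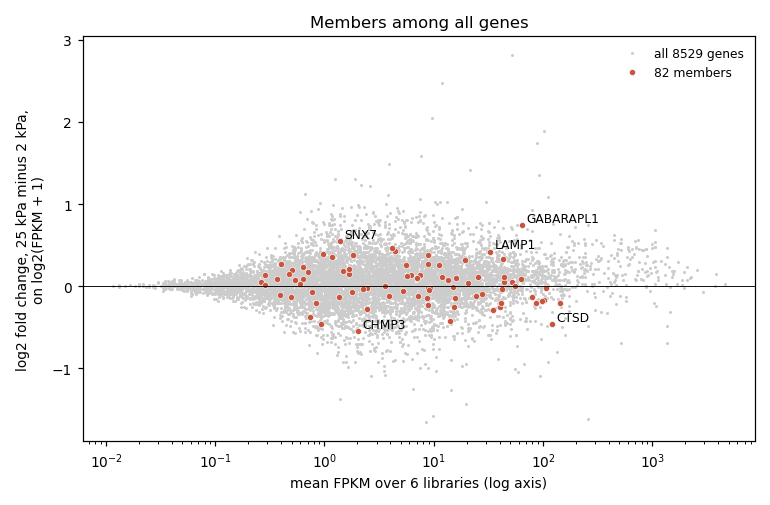
Log2 difference on log2(FPKM + 1) (y axis) against the mean FPKM of the 6 libraries (x axis, log scale) for all 8529 genes in grey and the 82 members in red. The members lie between −0.55 for CHMP3 and 0.74 for GABARAPL1, inside the range of all genes from −1.66 to 2.82.

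The ATG8 family held the member with the smallest p. GABARAPL1, whose protein is attached to the lipid of the autophagosome membrane and binds cargo receptors, is a protein-coding gene of chromosome 12 (GRCh38, forward strand, 10212458 to 10223130). Its level was 41.8, 51.3 and 50.1 FPKM at 2 kPa against 88.6, 80.5 and 71.8 FPKM at 25 kPa. Every library at 25 kPa was above every library at 2 kPa. The means were 47.7 ± 5.18 and 80.3 ± 8.39 FPKM (SD, n = 3), a ratio of 1.68, and the log2 difference was 0.74 (SE 0.13, 95% interval 0.45 to 1.03). GABARAPL1 held rank 29 of all genes, short of the 0.05 threshold (limma adjusted p = 0.0801, and 0.0638 to 0.357 over the 14 other settings tried). Its log2 difference stayed between 0.62 and 0.82 in these settings, with an unadjusted p under 0.05 in 14 of 14. The processed pseudogene GABARAPL3 on chromosome 15 shares 0.734% of the 50-base words in annotated GABARAPL1 transcripts.

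The other 3 family members had overlapping groups. GABARAP, the family's most abundant member here, had 82.1, 114 and 117 FPKM at 2 kPa and 75.6, 103 and 97.2 FPKM at 25 kPa (log2 difference −0.18, SE 0.17, limma adjusted p = 0.810). GABARAPL2 had 23.5, 23.2 and 26.7 FPKM at 2 kPa and 25.6, 26.7 and 27.2 FPKM at 25 kPa. MAP1LC3B, the LC3 gene of the table, had 11.3, 25.2 and 9.59 FPKM at 2 kPa and 15.2, 9.76 and 18.1 FPKM at 25 kPa. Its widest gap was within the 2 kPa group, between replicate 2 and the other libraries. GABARAPL1 stood at 0.462 ± 0.0422 of the GABARAP level at 2 kPa and at 0.898 ± 0.238 of it at 25 kPa (SD, n = 3), the ratio being 0.509, 0.450 and 0.427 in the former libraries and 1.17, 0.783 and 0.739 in the latter. These ratios were chosen after the values were seen, and their exact permutation p of 0.1 (two-sided) is the smallest that 3 against 3 libraries can give. Of the words in annotated GABARAP transcripts, 28.2% also occur in other genes, chiefly in the gene model AC120057.2. Whether this affected the deposited level of GABARAP is not known.

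**Figure D3:**
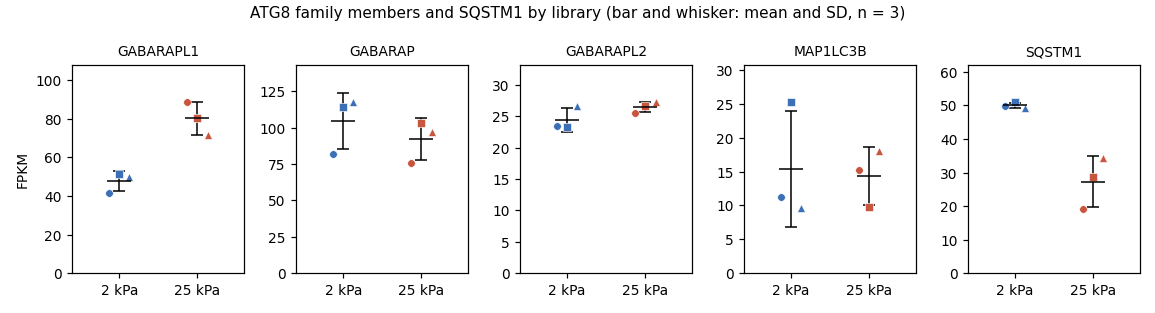
FPKM (y axis, from 0) of the 4 ATG8 family members and of the cargo receptor gene SQSTM1 in each library, with circles, squares and triangles for replicates 1, 2 and 3, a bar at the mean and whiskers of 1 SD (n = 3). GABARAPL1 lies at 41.8 to 51.3 FPKM at 2 kPa and at 71.8 to 88.6 FPKM at 25 kPa, and SQSTM1 at 49.3 to 50.9 and 19.0 to 34.3 FPKM.

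Of the 7 ATG genes, 4 were higher and 3 lower at 25 kPa, with a median log2 difference of 0.05, and none had an unadjusted p under 0.05. ATG101, a subunit of the ULK kinase complex that starts autophagosome formation, was the most abundant, at 92.1, 72.5 and 85.7 FPKM at 2 kPa and 71.4, 86.8 and 69.8 FPKM at 25 kPa (log2 difference −0.13, limma adjusted p = 0.822). ATG3, the enzyme that transfers ATG8 proteins to lipid, had 0.69, 0.84 and 1.12 FPKM at 2 kPa and 1.62, 1.03 and 1.63 FPKM at 25 kPa (log2 difference 0.36, SE 0.19, limma adjusted p = 0.579). ATG2B, which moves lipid into the growing membrane, had 0.64, 2.44 and 1.41 FPKM at 2 kPa and 1.67, 2.02 and 2.70 FPKM at 25 kPa (log2 difference 0.38, SE 0.30, limma adjusted p = 0.742). The ATG2B difference was 0.11 without 2 kPa replicate 1 and 0.64 without 2 kPa replicate 2. For ATG3 and for ATG2B the groups overlapped. The remaining 4 were ATG9A, a lipid scramblase of the membrane source, at 4.99 to 9.26 FPKM, the protease ATG4D at 1.01 to 4.07 FPKM, and ATG10 and ATG12, of the ATG5 conjugation system, at no more than 0.70 FPKM.

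Autophagy genes outside the symbol rule came from a list of 36 initiation factors and cargo receptors, of which 23 were in the table. Of these, 13 were higher and 10 lower at 25 kPa, with a median of 0.06, and 0 had an adjusted p under 0.05 by limma. An unadjusted p under 0.05 was found for 1 gene (4.35%, against 10.2% of all genes). That gene was SQSTM1, which encodes p62, a receptor that links ubiquitin-tagged cargo to ATG8 proteins. SQSTM1 had 49.9, 50.9 and 49.3 FPKM at 2 kPa and 19.0, 28.7 and 34.3 FPKM at 25 kPa, so that the groups lay apart. The mean at 25 kPa was 27.3 ± 7.72 FPKM (SD, n = 3), and the log2 difference was −0.89 (SE 0.19, 95% interval −1.32 to −0.45, limma adjusted p = 0.164, rank 68 of all genes). BECN1, of the lipid kinase complex that marks the forming autophagosome, had the next smallest p, with 1.12 ± 0.411 FPKM at 2 kPa and 2.09 ± 0.748 FPKM at 25 kPa (SD, n = 3; limma adjusted p = 0.554).

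The V-ATPase genes were strongly expressed. The 15 members had a median level of 40.8 FPKM, and their summed level was 543, 522 and 601 FPKM at 2 kPa and 497, 556 and 573 FPKM at 25 kPa, so that the groups overlapped. Of the 15 genes, 7 were higher and 8 lower at 25 kPa, with a median log2 difference of −0.02. With equal library sums 3 were higher and 12 lower (median −0.13), and after quantile normalisation or median centring 4 and 11. All 12 with a mean of at least 1 FPKM had a 95% interval inside a 2-fold change of FPKM + 1. In the membrane sector V0, which conducts the protons, the 5 members lay between −0.25 for ATP6V0D1 and 0.13 for ATP6V0A2 on the log2 scale. ATP6V0E1, the most abundant V-ATPase gene, had 105, 88.6 and 129 FPKM at 2 kPa and 89.0, 118 and 109 FPKM at 25 kPa (log2 difference −0.02, SE 0.17, limma adjusted p = 0.986). Its sign turned without 2 kPa replicate 3 and without 25 kPa replicate 1.

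In the catalytic sector V1, which hydrolyses ATP, 2 of 8 members (25%) had an unadjusted p under 0.05, in opposite directions. Of all genes, 10.2% had such a p. ATP6V1D, a subunit of the central stalk that turns during catalysis, had 40.9, 34.7 and 38.9 FPKM at 2 kPa and 47.4, 44.9 and 52.5 FPKM at 25 kPa. Its groups did not overlap, and its log2 difference was 0.33 (SE 0.12, limma adjusted p = 0.361). ATP6V1E2, an isoform of the peripheral stalk, had 0.78, 1.31 and 0.80 FPKM at 2 kPa and 0.36, 0.53 and 0.63 FPKM at 25 kPa (log2 difference −0.38, SE 0.16, limma adjusted p = 0.472). These are values under 1.5 FPKM, where the log2(FPKM + 1) scale compresses a change and small steps move the ratio. The other members of V1 include the subunits that form the catalytic ring, ATP6V1A at 34.9 to 52.5 FPKM and ATP6V1B2 at 40.3 to 48.7 FPKM. For both of these genes the groups overlapped. The accessory protein ATP6AP2, also known as the prorenin receptor, was at 45.6 to 57.9 FPKM and ATP6AP1 at 26.2 to 47.0 FPKM.

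The lysosomal hydrolases among the members were 8 cathepsins and ASAH1, the acid ceramidase that splits ceramide. At 25 kPa 4 of the 9 were higher and 5 lower, with a median log2 difference of −0.07. An unadjusted p under 0.05 was found for 3 (33.3%, against 10.2% of all genes). The median was −0.31 over the 4 genes with a mean of at least 1 FPKM, 0.06 without 2 kPa replicate 2 and 0.02 without 25 kPa replicate 1. The summed level of the 9 was 282, 371 and 298 FPKM at 2 kPa and 220, 275 and 270 FPKM at 25 kPa, without overlap. This sum was carried by CTSZ and CTSD, since CTSA, CTSC, CTSK, CTSS and ASAH1 each had a mean under 1 FPKM. Whether less of an RNA in a culture lay in fewer cells or in less RNA per cell cannot be told apart in these bulk libraries.

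CTSZ, an exopeptidase, was the most abundant member of all, with 142, 165 and 154 FPKM at 2 kPa and 115, 142 and 145 FPKM at 25 kPa, and its groups overlapped (log2 difference −0.20, SE 0.13, limma adjusted p = 0.684). CTSD, the main aspartic protease of the lysosome, is a protein-coding gene of chromosome 11 (GRCh38, reverse strand, 1752752 to 1764573). It had 115, 184 and 125 FPKM at 2 kPa and 86.6, 114 and 103 FPKM at 25 kPa. The groups did not overlap, with the nearest libraries at 113.67 and 115.19 FPKM, and 2 kPa replicate 2 was far above the other libraries. The log2 difference of CTSD was −0.46 (SE 0.19, limma adjusted p = 0.453), and −0.25 without 2 kPa replicate 2. Of the words in annotated CTSD transcripts, 36.5% also belong to the gene model AC068580.4, so reads could have been shared between them. CTSB, a cysteine protease, had 19.5, 16.5 and 12.9 FPKM at 2 kPa and 10.9, 11.2 and 13.3 FPKM at 25 kPa, and the groups overlapped (log2 difference −0.42, SE 0.17, limma adjusted p = 0.449).

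CTSV, a cysteine protease closely related to cathepsin L, was higher at 25 kPa. It had 3.93, 3.27 and 3.77 FPKM at 2 kPa and 4.94, 5.23 and 5.57 FPKM at 25 kPa, and its groups did not overlap. The means were 3.66 ± 0.344 and 5.25 ± 0.315 FPKM (SD, n = 3), a log2 difference of 0.43 (SE 0.18, limma adjusted p = 0.479). In 4 of the 14 other settings CTSV had an unadjusted p under 0.05. CTSV stood at 0.0274 ± 0.00855 of the CTSD level at 2 kPa and at 0.0524 ± 0.00575 of it at 25 kPa (SD, n = 3), a ratio chosen after the values were seen.

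A list of 44 further lysosomal hydrolases and their helpers, outside the symbol rule, gave 27 genes in the table. Of these, 18 were lower and 9 higher at 25 kPa, with a median log2 difference of −0.16. That median lay between −0.26 and −0.01 in the 14 other settings. Without 2 kPa replicate 2 it was −0.01, with 13 genes higher and 14 lower. With equal library sums, quantile normalisation or median centring, 6 genes were higher and 21 lower. Their median was then −0.26, −0.22 and −0.21, against −0.02, 0.00 and 0.00 over all genes. By limma, 0 had an adjusted p under 0.05, and 3 had an unadjusted p under 0.05, all of them lower. These 3 are 11.1% of the list, against 10.2% of all genes in both directions and 3.19% lower. The groups did not overlap for 6 genes in either direction, or 22.2% of the list against 16% of all genes. Of these 6, 5 were lower, a pattern that 4.78% of all genes had. NEU1, the lysosomal sialidase, had 50.1, 48.9 and 63.5 FPKM at 2 kPa and 31.0, 45.6 and 42.0 FPKM at 25 kPa (log2 difference −0.45, SE 0.17, limma adjusted p = 0.403). NAGLU, which removes N-acetylglucosamine from heparan sulfate, had 8.86, 10.2 and 9.64 FPKM at 2 kPa and 5.70, 7.21 and 7.65 FPKM at 25 kPa (log2 difference −0.43, SE 0.16, limma adjusted p = 0.404). For both genes every library at 25 kPa was below every library at 2 kPa.

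LAMP1, the glycoprotein that lines the lysosomal membrane, was the LAMP gene of the table and had the largest SE of the members over 10 FPKM. It had 16.5, 49.5 and 21.4 FPKM at 2 kPa and 22.9, 42.3 and 44.5 FPKM at 25 kPa. The spread within each group was wider than the difference between them (log2 difference 0.42, SE 0.39, 95% interval −0.46 to 1.30, limma adjusted p = 0.797). Its log2 difference was 0.87 without 2 kPa replicate 2 and 0.11 without 2 kPa replicate 1.

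**Figure D4:**
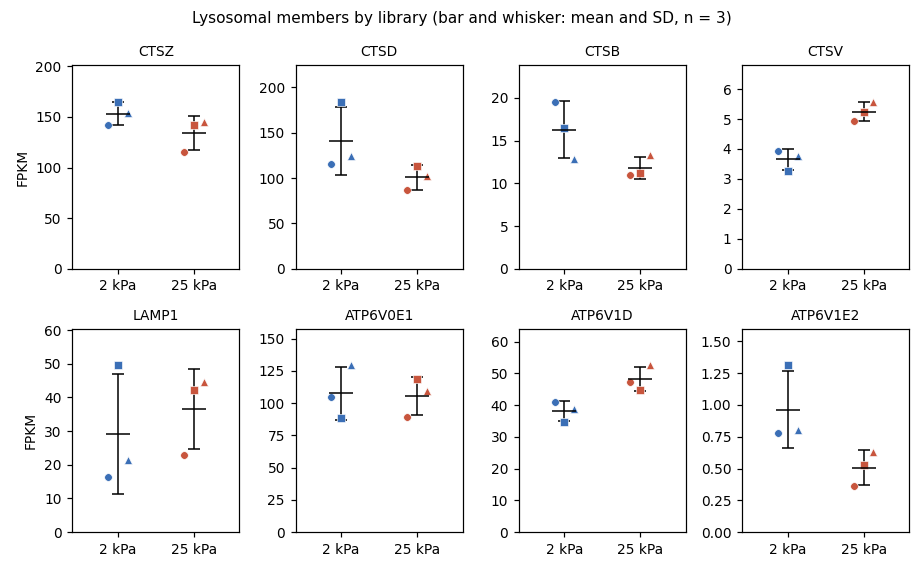
FPKM (y axis, from 0) of 4 cathepsin genes, LAMP1 and 3 V-ATPase genes in each library, with circles, squares and triangles for replicates 1, 2 and 3, a bar at the mean and whiskers of 1 SD (n = 3). CTSD lies lower and CTSV and ATP6V1D higher at 25 kPa without overlap, and LAMP1 varies from 16.5 to 49.5 FPKM within the 2 kPa group.

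A list of 31 genes of the TFEB family, of the kinase complex mTORC1 and of its regulators had 18 in the table. Of these, 8 were higher and 10 lower, with a median of −0.02, from −0.38 for TFE3 to 0.28 for RHEB. By limma, 0 of them had an adjusted p under 0.05. An unadjusted p under 0.05 was found for 2 (11.1%, against 10.2% of all genes). RHEB, the small GTPase that activates mTORC1, had 66.8, 65.4 and 74.1 FPKM at 2 kPa and 80.2, 88.3 and 82.8 FPKM at 25 kPa (log2 difference 0.28, SE 0.11, limma adjusted p = 0.409). RRAGA, a GTPase that recruits mTORC1 to the lysosome, had 22.4, 29.5 and 24.0 FPKM at 2 kPa and 20.6, 17.0 and 21.3 FPKM at 25 kPa (log2 difference −0.35, SE 0.15, limma adjusted p = 0.460).

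The E-box core CACGTG and the longer TFEB-type site TCACGTG were searched on both strands in RefSeq promoters of GRCh38.p14, which run from 250 bases before to 50 bases after a gene start. A promoter was matched for 59 of the 82 members, and a gene with several starts counted as holding a motif if any of its promoters did. The 7-base site was in 10 of the 59 members (16.9%), against 6.80% of 6454 genes of the table and 4.49% of all 27305 genes with a promoter. The core, which the 7-base site contains, was in 11 (18.6%), against 11.9% and 8.77%. The 8-base palindrome TCACGTGA, a match of the 7-base site on both strands, was in 7 (11.9%), against 2.00% and 1.18%. Sites of 8 of the 10 members are shown because they let the pump, protease, membrane and autophagy genes be compared letter by letter. Each window is 30 bases in the direction of its gene, with the match in capitals.

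LAMP1 (chr13:113297199-113297228, plus strand): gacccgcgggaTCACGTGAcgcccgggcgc
LAMP1 (chr13:113297035-113297064, plus strand): accaggccgggTCACGTGggtccagggtca
CTSD (chr11:1763956-1763985, minus strand): ccggccgcgccCACGTGAccggtccgggtg
CTSA (chr20:45891298-45891327, plus strand): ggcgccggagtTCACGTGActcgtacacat
ATP6V0D1 (chr16:67481199-67481228, minus strand): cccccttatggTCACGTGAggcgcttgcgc
ATP6V1G1 (chr9:114587699-114587728, plus strand): acgctgtgcggTCACGTGAcaacgggggcg
CHMP4A (chr14:24213585-24213614, minus strand): ggtggcttgggTCACGTGAcaccggtggtc
ATG3 (chr3:112561963-112561992, minus strand): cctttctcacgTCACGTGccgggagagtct
VPS11 (chr11:119067772-119067801, plus strand): gctggctcagcTCACGTGAcaaagctcccg

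LAMP1 held the most matches, 6 in 1 promoter, which begin between −193 and −2 from the gene start. The match begins at −47 in CTSD, at −60 in ATP6V0D1 and at −59 in ATP6V1G1. Of the 10 members that hold the 7-base site, 5 were higher at 25 kPa as reported, with a median of −0.06. Among these 5, ATP6V1G1 was at 0.00 and CHMP4A at 0.08. CTSD was the one of the 10 with an unadjusted p under 0.05. This split is given for the scaling as reported and not for the others, so it does not settle a common direction. The 49 members whose promoters lacked it had a median of 0.09, with 31 higher and 6 at an unadjusted p under 0.05. Of all genes in the table, 10.2% had such a p. The GABARAPL1 promoter held none of these letters in this window. A match describes the sequence and does not show binding.

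The ESCRT group, which sorts ubiquitin-tagged receptors into vesicles inside the late endosome, had 15 members, 7 of them higher and 8 lower at 25 kPa, with a median log2 difference of −0.03. With equal library sums 4 were higher and 11 lower (median −0.12), after quantile normalisation 5 and 10, and after median centring 6 and 9. CHMP2A, a subunit of the membrane-cutting ESCRT-III filament, was the most abundant, with 57.3, 57.4 and 69.1 FPKM at 2 kPa and 58.1, 75.8 and 62.3 FPKM at 25 kPa. Its log2 difference was 0.09 (SE 0.14, limma adjusted p = 0.895) and turned to −0.03 when FPKM were rescaled to equal library sums. The 9 ESCRT-III genes summed to 180, 181 and 191 FPKM at 2 kPa and to 181, 195 and 190 FPKM at 25 kPa.

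Within ESCRT-III, CHMP3 and CHMP5 had an unadjusted p under 0.05, in opposite directions. They are 2 of 9 genes (22.2%), and in the whole ESCRT group 3 of 15 had such a p (20%). Of all genes, 10.2% had one. CHMP3, a protein-coding gene of chromosome 2 (GRCh38, reverse strand, 86503431 to 86563479), had 2.66, 2.80 and 2.33 FPKM at 2 kPa and 2.09, 1.33 and 1.04 FPKM at 25 kPa. The groups did not overlap, and its log2 difference of −0.55 was the lowest of all members (SE 0.23, limma adjusted p = 0.465). CHMP3 shares 10.1% of its transcript words with the read-through gene RNF103-CHMP3. CHMP5, which regulates the ATPase that takes the filament apart, had 17.8, 14.2 and 19.9 FPKM at 2 kPa and 22.3, 21.1 and 21.8 FPKM at 25 kPa, without overlap (log2 difference 0.32, SE 0.14, limma adjusted p = 0.484). Its unadjusted p was under 0.05 in 1 of the 14 other settings, and its log2 difference was 0.20 without 2 kPa replicate 2. In ESCRT-II, VPS36 had 0.50, 0.90 and 0.72 FPKM at 2 kPa and 1.34, 1.02 and 1.34 FPKM at 25 kPa (log2 difference 0.39, SE 0.17, limma adjusted p = 0.486), and its unadjusted p was under 0.05 in 4 of the 13 other settings that tested it. CHMP1B, at 25.2 to 29.1 FPKM, also showed no overlap between groups, with the nearest libraries at 27.73 and 27.76 FPKM.

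The list of 50 other ESCRT and endosome sorting partners had 22 genes in the table, with 17 higher and 5 lower at 25 kPa and a median log2 difference of 0.15. These 17 are 77.3% of the genes found, against 59.6% of all genes. With FPKM rescaled to equal library sums, 14 were higher and the median was 0.05. By limma, 0 had an adjusted p under 0.05 and 2 an unadjusted p under 0.05 (9.09%, against 10.2% of all genes). TSG101, the ESCRT-I subunit that binds ubiquitin, had 30.7, 31.1 and 31.7 FPKM at 2 kPa and 35.8, 42.2 and 36.2 FPKM at 25 kPa, without overlap (log2 difference 0.28, SE 0.11, limma adjusted p = 0.439). EEA1, the tether of early endosomes, had 1.36, 0.89 and 0.53 FPKM at 2 kPa and 2.13, 1.30 and 1.98 FPKM at 25 kPa, and its groups overlapped (log2 difference 0.55, SE 0.23, limma adjusted p = 0.466).

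The other 16 VPS genes gave 10 higher (62.5%, against 59.6% of all genes) and 6 lower at 25 kPa. Their median was 0.01, and none had an unadjusted p under 0.05. The majority turned with equal library sums, to 5 higher and 11 lower, and after quantile normalisation or median centring, to 6 and 10. VPS72, a subunit of a chromatin remodelling complex, is among them by its symbol alone. Retromer, the coat that returns receptors from endosomes, had 4 members in the table, VPS26A, VPS26B, VPS29 and VPS35, and their summed level was 25.0, 25.8 and 22.7 FPKM at 2 kPa and 31.0, 24.0 and 33.4 FPKM at 25 kPa. All 4 had a positive log2 difference, 0.11 to 0.38, and 3 of the 4 when FPKM were rescaled to equal library sums. VPS29 had the smallest p of these, with 8.33, 6.14 and 7.88 FPKM at 2 kPa and 11.5, 7.69 and 11.2 FPKM at 25 kPa (log2 difference 0.38, SE 0.19, limma adjusted p = 0.562). Its replicate 2 library at 25 kPa lay inside the 2 kPa range.

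HOPS and CORVET tether vesicles to lysosomes and endosomes, and their 5 members had a median log2 difference of −0.13. VPS18, a core subunit of both, had 15.0, 17.6 and 17.2 FPKM at 2 kPa and 11.8, 14.9 and 14.6 FPKM at 25 kPa (log2 difference −0.25, SE 0.14, limma adjusted p = 0.590). The groups did not overlap, but the nearest libraries were at 14.97 and 14.94 FPKM. VPS41, a HOPS subunit, was listed at 0.07 to 0.66 FPKM (log2 difference 0.27, SE 0.14, limma adjusted p = 0.570). GARP, which tethers vesicles that come from endosomes to the Golgi, had 4 members, led by VPS51 with 96.2, 83.2 and 96.0 FPKM at 2 kPa and 77.4, 91.1 and 70.7 FPKM at 25 kPa (log2 difference −0.21, SE 0.13, limma adjusted p = 0.644). The other subunits of GARP, VPS52, VPS53 and VPS54, were at no more than 5.07 FPKM. The lipid transfer proteins VPS13A and VPS13C were at 0.28 to 2.56 FPKM.

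Sorting nexins bind endosomal lipid through a PX domain, and 15 were in the table, with 10 higher and 5 lower at 25 kPa and a median log2 difference of 0.10. These 10 are 66.7% of the nexins, against 59.6% of all genes. After rescaling to equal library sums, 8 nexins were higher and the median was 0.01. SNX7, which has a membrane-bending BAR domain, had 0.73, 0.86 and 1.15 FPKM at 2 kPa and 1.40, 2.58 and 1.55 FPKM at 25 kPa, without overlap. Its log2 difference was 0.55 (SE 0.22, 95% interval 0.05 to 1.06, limma adjusted p = 0.444). SNX5, a BAR-domain partner of retromer in receptor retrieval, had 10.6, 9.26 and 9.94 FPKM at 2 kPa and 13.2, 9.83 and 13.6 FPKM at 25 kPa (log2 difference 0.26, SE 0.16, limma adjusted p = 0.632), and SNX6, its close relative, lay at 15.0 to 15.5 and 15.7 to 17.4 FPKM. SNX17, which recycles integrins and LDL-family receptors to the cell surface, was the most abundant nexin, with 41.2, 44.5 and 46.1 FPKM at 2 kPa and 34.2, 47.6 and 33.0 FPKM at 25 kPa (log2 difference −0.21, SE 0.15, limma adjusted p = 0.705). SNX13, SNX14 and SNX19, which share a PXA domain beside the PX domain, were at 1.30 to 11.8 FPKM. All 3 of these had a positive log2 difference in the 14 other settings too, and none had an unadjusted p under 0.05 in the comparison as reported.

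**Figure D5:**
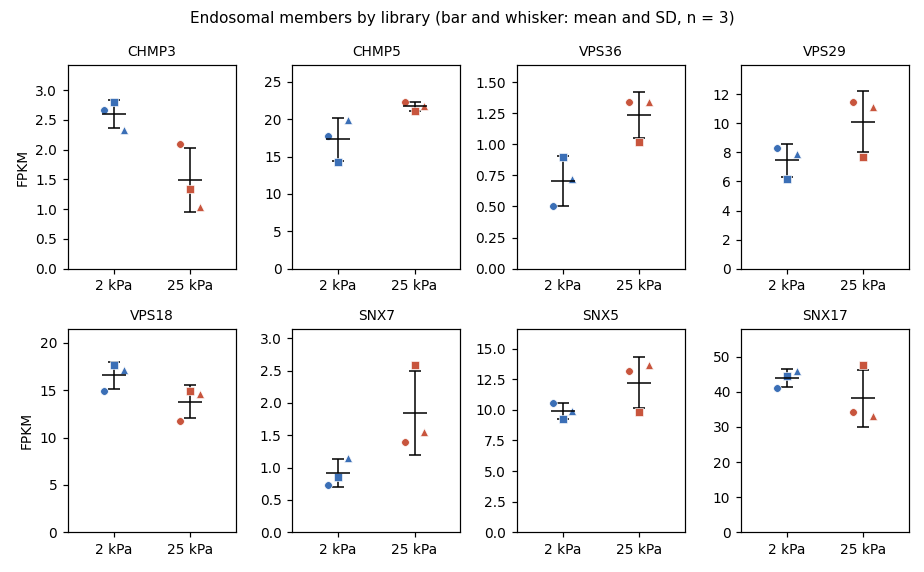
FPKM (y axis, from 0) of 8 genes of endosome sorting in each library, with circles, squares and triangles for replicates 1, 2 and 3, a bar at the mean and whiskers of 1 SD (n = 3). CHMP3 and VPS18 lie lower and CHMP5, VPS36 and SNX7 higher at 25 kPa without overlap, and VPS29, SNX5 and SNX17 overlap.

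Proliferation genes were higher at 25 kPa beside these results. Of 20 proliferation markers, 16 were in the table, 15 of them higher at 25 kPa. The median log2 difference was 0.55, and their summed level was 440 to 530 FPKM at 2 kPa and 647 to 673 FPKM at 25 kPa. Among these 16, limma gave 0 at an adjusted p under 0.05 and 6 at an unadjusted one (37.5%, against 10.2% of all genes). CCNB2 (38.4 ± 2.37 and 63.8 ± 6.37 FPKM, SD, n = 3, limma adjusted p = 0.0759) and CCNA2 (20.4 ± 2.51 and 35.1 ± 5.03 FPKM, SD, n = 3, limma adjusted p = 0.108), cyclins of mitosis and S phase, had the smallest p of them. The part of proliferation in the values of GABARAPL1, the cathepsins and the other members was not tested.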

How the data were processed

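RNA of SW480 cells was sequenced from 6 libraries, 3 on 2 kPa and 3 on 25 kPa hydrogels, and groups and replicate numbers came from the labels. The authors normalised the reads to FPKM and deposited 1 value per gene symbol and library, with 0 values at 0 and a lowest FPKM of 0.01. The submitters' processing notes name HISAT, StringTie, Bowtie2, RSEM and hg18 without roles or versions. Filters and annotation are not given in the sources used here. The authors' DESeq2 test needs counts and was not run. 0 columns were unassigned.

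Here log2(FPKM + 1) of all 8529 genes was compared by limma 3.58.1 in R 4.3.3 (lmFit, eBayes with a variance trend, two-sided), with Benjamini-Hochberg adjustment over all genes, a threshold of 0.05 and no replicate block. As alternatives, 0.1 or 0.01 was added in place of 1, genes under a mean of 1 FPKM were dropped, and the fit was repeated with equal library sums, quantile normalisation, median centring, no trend, a replicate block and each library left out. The program was tested on simulated data. Tables were handled in Python 3.11.15 with pandas 2.3.3, and figures drawn with matplotlib 3.10.9.

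Genes described singly are, among the V-ATPase, cathepsin, LAMP and ATG8 members, those with an unadjusted p under 0.05 and the most abundant. In other compartments they are the 3 with the smallest p and the most abundant, and in lists outside the rule the 2 with the smallest p. Levels of other members were named after their values were seen. The members and lists were chosen with earlier results of these data known. Coordinates come from GENCODE 29 on GRCh38, matched by symbol, not from the authors' build, and promoters from RefSeq. Shared sequence was counted as 50-base words of annotated transcripts. The depth of the libraries is unknown, and precision rests on the spread of 3 libraries.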

Additional observations from a re-analysis of the deposited data

How the results depend on the processing

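In all 14 other settings, 0 of the members tested had an adjusted p under 0.05 by limma, as in the comparison reported. The counts at an unadjusted p under 0.05 (6 higher, 4 lower) changed most with scaling: 1 and 11 with equal library sums, 3 and 9 after quantile normalisation, and 1 higher after median centring, where 8.15%, 10.8% and 9.16% of all genes passed, 42.7%, 51.1% and 49.9% of them higher. With the replicate block the counts were 3 and 1, where 5.58% of all genes were higher and 2.78% lower. With each library left out they were 2 to 6 and 1 to 4, against 5.02% to 8.5% and 2.27% to 3.51% of all genes. They were 2 and 2 without 2 kPa replicate 1, and 2 and 1 without 25 kPa replicate 3. They were 3 and 2 without 25 kPa replicate 1, and 1 was lower without 2 kPa replicate 2. The number of members without overlap (7 higher, 5 lower) was 3 and 10 with equal library sums and 4 and 12 after quantile normalisation. It was 4 higher after median centring. With each library left out it was 7 to 17 and 6 to 11, where fewer libraries overlap less often by construction. Of all genes, 11.2% were higher and 4.78% lower without overlap as reported. That share is not given for the other settings, so these counts cannot be read as a trait of the members. Over all genes, the number with an adjusted p under 0.05 was 10 as reported, 17 with a pseudocount of 0.1 and 3 with the replicate block or without 25 kPa replicate 2. The median log2 difference of the members ran from −0.07 to 0.06 over these settings, with 30 to 49 members higher. Each shift was under 0.184, the pooled SD of the members' median log2 level between libraries of a group. That bound is wide beside a median difference of 0.01. The cause of the other shifts was not tested.

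Signs turned for CHMP2A with equal library sums (−0.03), after quantile normalisation (0.00) and with a library left out (range −0.02 to 0.18), and for ATP6V0E1 (−0.15 to 0.12 with a library left out). The other genes described singly kept their sign. Same-numbered libraries did not deviate together (correlations of 0.115, −0.267 and −0.125), so the numbers were not taken as pairs. With the replicate block, 4 members had an unadjusted p under 0.05, as did 8.36% of all genes. The depth is unknown, so no detection limit can be given for the 20 members under 1 FPKM.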
